A study of Triticum aestivum with 24 samples.

Results

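Leaves of bread wheat (Triticum aestivum) cultivar Chinese Spring that had been heated were compared with leaves of unheated plants 1 day after the treatment (1 DAT). The comparison used 8 of the 24 RNA-seq libraries of the series, 4 heat and 4 control libraries of 1 DAT, and every transcript that passed a filter on low counts, 54517 of 137056 (47179 genes). The 144 plants came from selfed seed of a single plant and grew under a 16 h day at 18 °C and an 8 h night at 16 °C. At boot stage, when the ear swells inside the flag leaf sheath, 72 plants were moved to 37 °C for 5 days with water supplied, and 72 stayed in the control regime. Both sets then stood in the control regime, and by the study's methods leaves of all plants were taken at 0, 1 and 4 DAT. Heat leaves of 1 DAT thus had 1 day of recovery, and control leaves of 1 DAT were never heated. Both came from plants already sampled at 0 DAT. The methods also give 18 plants for each replicate of a treatment. The 4 replicates of a group are read here as 4 separate pools of plants, although the study's methods describe pooling for other library types. The wider study asked which wheat messages are under the control of small RNAs during heat.

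Heat unfolds proteins, makes membranes leaky and damages photosystem II, and leaves respond with chaperones, scavengers of reactive oxygen and calcium signals. Recovery at normal temperature involves the rebuilding of photosynthetic complexes and of the machinery of protein synthesis. Bread wheat is a hexaploid whose A, B and D subgenomes each carry a copy of most genes, called homoeologs. MicroRNAs (miRNAs) of plants pair with messages along nearly their whole length and guide the cleavage of the message opposite miRNA positions 10 and 11. In these bulk leaves, fewer cells of a type and less RNA per cell cannot be told apart.

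Total counts were 8539252 to 11652833 in the 4 control libraries and 7775659 to 11872826 in the 4 heat libraries of 1 DAT. Pearson correlations of log2 CPM (counts scaled to a common library size, here by TMM, with 0.5 added) were 0.837 to 0.909 among control libraries, 0.86 to 0.922 among heat libraries and 0.803 to 0.888 between the groups. Heat replicate 3 stood apart, with 6.95% of its counts in 1 transcript, TraesCS1A01G000100.1, against at most 0.0548% in the other 7 libraries of 1 DAT. The same transcript held 3.67 to 4.57% of the counts in 3 libraries of 4 DAT. Values that rest on heat replicate 3 are therefore given with and without it. A Rubisco small chain transcript, TraesCS5B01G162800.1, read 2065 to 10257 CPM in the 8 libraries, as a leaf marker. The pollen allergen Phl p 5 transcript, TraesCS4D01G024700.1, had no count in any of them. The listed carbonic anhydrase, TraesCS1A01G443500.1, had 0.0952 CPM in 1 library and none in the others.

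**Figure D1:**
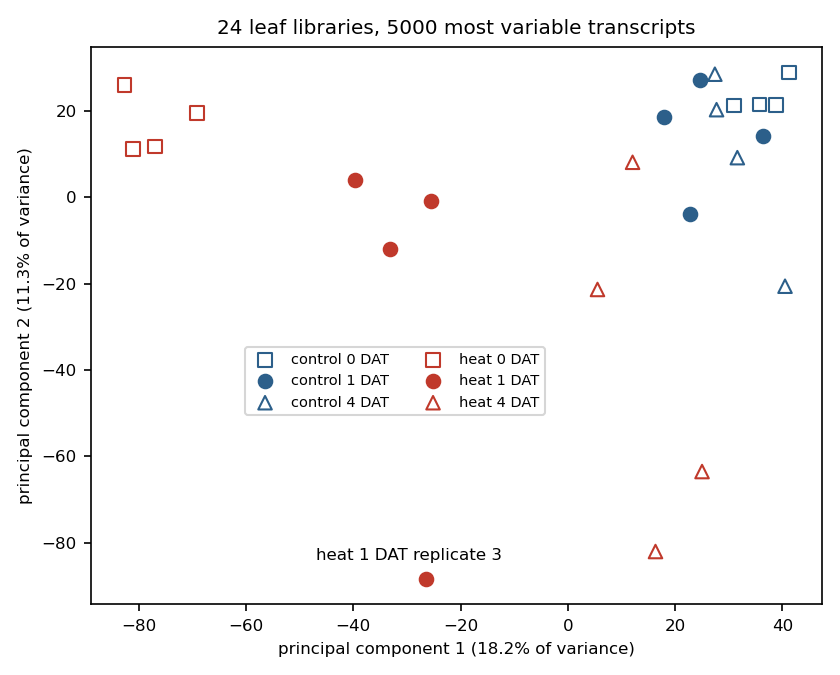
The first 2 principal components of all 24 libraries, from the 5000 most variable transcripts (log2 of CPM + 0.5), each point a library, with group shown by colour and marker. Along the first component (18.2% of the variance) the 4 heat libraries of 1 DAT lie between −39.6 and −25.5 and the 4 control libraries of 1 DAT between 17.9 and 36.4. Along the second component (11.3%) heat replicate 3 of 1 DAT lies at −88.4, and heat replicates 4 and 2 of 4 DAT lie at −82.1 and −63.5.

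One day into recovery, 7358 transcripts of 7265 genes differed between heated and control leaves, which is 13.5% of those tested (edgeR's quasi-likelihood test, Benjamini-Hochberg adjusted p under 0.05). Of these, 3988 (7.32% of those tested) were higher in heat and 3370 (6.18%) were lower. The higher calls had a median log2 fold change of 1.11, and 2312 of them reached 2-fold, 659 reached 4-fold and 273 reached 8-fold. The lower calls had a median of −0.93, with 1527 at 2-fold or beyond, 515 at 4-fold and 217 at 8-fold. Over all transcripts tested the median log2 fold change was −0.04 and the median standard error 0.34. The 4 heat libraries lay wholly above the 4 control libraries for 3326 of the higher calls (83.4%) and wholly below for 2620 of the lower calls (77.7%), while of all tested transcripts 8.65% lay wholly above and 7.74% wholly below, 16.4% in either direction. Without heat library 3 the test called 5975 transcripts (3557 higher and 2418 lower), and 5476 of the 7358 calls were made again in the same direction and none in the opposite one. Scaling by total count in place of TMM left 3138 higher and 1204 lower calls, so that 72.3% of calls were higher against 54.2%. A fit of the 8 libraries of 1 DAT on their own called 3514 of the 43850 transcripts it tested.

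Calls were more frequent among transcripts with higher counts. In the top quartile of mean CPM, above 9.47 CPM, 14% of transcripts were higher and 11.2% lower, against 2.29% and 2.08% in the bottom quartile, below 1.39 CPM. All 21 chromosomes took part to a similar degree, with 6.35% (6D) to 8.61% (4D) of tested transcripts higher and 5.27% (7A) to 7.55% (1D) lower. The subgenomes were close, with 7.46% higher and 6.06% lower in A, 7.27% and 6.07% in B and 7.26% and 6.4% in D.

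**Figure D2:**
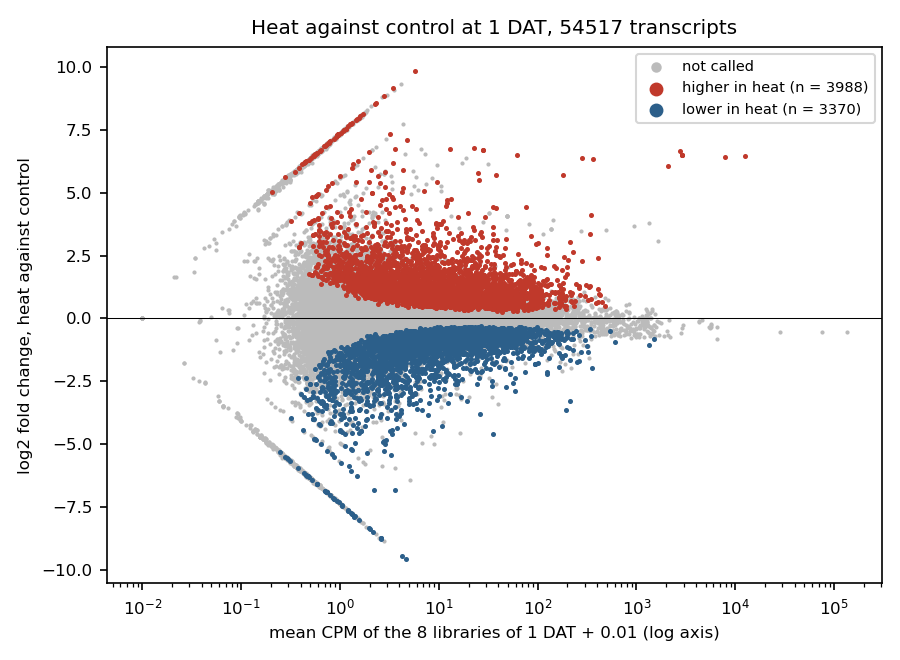
Log2 fold change of heat against control at 1 DAT (vertical axis) against the mean CPM of the 8 libraries plus 0.01 (log axis) for the 54517 tested transcripts, with the 3988 higher calls in red, the 3370 lower calls in blue and the rest in grey. The 7 higher calls at the right edge, with log2 fold changes of 6.06 to 6.65, are the transcripts whose level comes from heat replicate 3.

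Among calls whose mean reached 1000 CPM in either group, 7 were higher in heat, and all 7 of these calls came from heat replicate 3. TraesCS1A01G000100.1 read 215 to 360 CPM in the control libraries and 313, 127, 99487 and 439 CPM in heat replicates 1 to 4. Its log2 fold change of 6.46 (edgeR, adjusted p = 0.044) became 0.05 without heat library 3 (adjusted p = 1.00). TraesCS1A01G000200.1, TraesCSU01G260700.1, TraesCSU01G258100.1 and the identical-valued trio TraesCSU01G265300.1, TraesCSU01G265500.1 and TraesCSU01G267800.1 had log2 fold changes of 6.06 to 6.65, and without that library −0.09 to 0.07. The other 2 calls at this level were lower in heat and kept their calls without that library. TraesCS1B01G432700.1 read 1746, 2001, 2589 and 1275 CPM in control replicates 1 to 4 and 1167, 1128, 1435 and 653 CPM in heat, a log2 fold change of −0.80 ± 0.21 (SE, n = 4 per group, edgeR adjusted p = 0.017). TraesCS7D01G276300.1 read 1955, 1529, 2582 and 1176 CPM in control and 1078, 820, 1196 and 403 CPM in heat (−1.05 ± 0.28, edgeR adjusted p = 0.014). Each of the 9 transcripts was chosen after its values were seen, and the sources used here carry no annotation for them.

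Function was known for 370 tested transcripts, those with annotation text in the study's table of miRNA targets, a selected set and not a sample of all genes. Of these, 46 were called (12.4%), 27 higher (7.3%) and 19 lower (5.14%), close to the shares over all transcripts, and their median log2 fold change was −0.004. Groups of related proteins within the 370 are described below by their counts. The groups were chosen with earlier results of these data known, so counts set beside the shares over all transcripts are a description only. A call is said to end where the adjusted p of a refit reached 0.05. Refits left out each library in turn, used only the 8 libraries of 1 DAT (the 8-library fit), scaled by total count, dropped the count filter, or left out the 4 libraries in which TraesCS1A01G000100.1 took over 1% of counts (the fit without rich libraries). A library number is its replicate number, at 1 DAT unless another time is named. Each of the 46 kept its sign in all of these refits in which it was tested, and 11 of the 46 also passed a test against a fold of 1.5. Homoeologs and other near-identical copies share reads, which kallisto divides among them, so a value for 1 copy carries that uncertainty.

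Chloroplast proteins were the group with the most annotated calls by number, in one of the longer lists. Of 21 tested photosynthesis and chloroplast transcripts, 5 were higher, 1 was lower and 15 did not pass, beside 7.32% of all transcripts higher and 6.18% lower, with a median log2 fold change of 0.07. The largest difference was that of TraesCS1D01G211600.1, annotated as a diaminopimelate ligase of the MurE kind, an enzyme of bacterial cell walls whose Arabidopsis relative belongs to the chloroplast RNA polymerase complex. It read 0.933, 2.42, 4.05 and 1.43 CPM in control replicates 1 to 4 and 23.2, 18.2, 21.7 and 28.6 CPM in heat replicates 1 to 4. All 4 heat libraries lay far above all 4 control libraries, and the log2 fold change was 3.39 ± 0.33 (edgeR adjusted p = 1.1e-06). At 0 DAT it was already higher (1.93), and 1 day later the effect had grown by 1.45 on the log2 scale (adjusted p = 0.044). That last call ended in the fit of the 16 libraries of 0 and 1 DAT (0.083), under total-count scaling (0.14), without the filter (0.063), without rich libraries (0.082), and without any 1 of 18 libraries (0.051 to 0.10). The 6 libraries whose removal left it were control replicate 4 and heat library 2 of 0 DAT, control replicate 3 and heat library 2 of 1 DAT, and control libraries 1 and 2 of 4 DAT.

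TatC is the core of the twin-arginine translocase, which carries folded proteins into the thylakoid. The B copy, TraesCS3B01G224200.1, read 40.4, 40.5, 45.6 and 36.2 CPM in control and 76.3, 53.5, 66.6 and 55.2 CPM in heat, with no overlap, a log2 fold change of 0.63 ± 0.16 (edgeR adjusted p = 0.0097). For the A copy, TraesCS3A01G193600.1, control libraries read 56.9, 52.7, 55.0 and 43.8 CPM and heat libraries 97.2, 70.5, 70.7 and 68.7 CPM (0.56 ± 0.16, edgeR adjusted p = 0.021). Both were lower in heat at 0 DAT (−0.89 and −0.50, adjusted p = 0.00024 and 0.025), so the heat effect on each changed sign between the end of the treatment and the next day. The change of 1.52 for the B copy and of 1.06 for the A copy passed the test of the difference (adjusted p = 0.00025 and 0.0054), that of the A copy not under total-count scaling (0.11). The 1 DAT call of the A copy ended without control library 4 (0.066) or heat library 1 (0.10) and in the 8-library fit (0.071). These were the chloroplast transcripts with a sign change among the called ones, and both are listed targets of a miR9662.

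PsbP, an outer subunit of the water-splitting side of photosystem II, was higher through TraesCS5A01G109600.1, with 9.33, 9.57, 12.8 and 7.52 CPM in control and 19.7, 14.8, 18.8 and 13.0 CPM in heat (0.76 ± 0.19, edgeR adjusted p = 0.009). The lowest heat library stood just above the highest control library, and the 8-library fit ended the call at 0.054. Subunit 4 of the cytochrome b6-f complex, which passes electrons between the photosystems, read 7.47, 9.37, 9.27 and 8.77 CPM in control and 24.9, 18.4, 81.9 and 19.1 CPM in heat (TraesCSU01G269500.1). Heat replicate 3, the library with 6.95% of counts in TraesCS1A01G000100.1, was again the high one, and the log2 fold change of 2.03 (edgeR adjusted p = 0.0069) was 1.26 without it (0.046). The lower member was TraesCS2D01G173700.1, WEAK CHLOROPLAST MOVEMENT UNDER BLUE LIGHT 1, a protein of light-driven chloroplast positioning in Arabidopsis, at 30.5 ± 4.98 CPM in control and 23.2 ± 1.70 in heat (SD, n = 4). Its groups overlapped, and its adjusted p of 0.048 rose above 0.05 without any 1 of 7 libraries of 1 DAT, all but control replicate 2 (0.075 to 0.14), and without any 1 of 14 libraries of 0 and 4 DAT (0.052 to 0.075). It also rose above 0.05 in the 8-library fit (0.19), under total-count scaling (0.48) and median-of-ratios scaling (0.062), without the filter (0.12), without rich libraries (0.21) and in the likelihood ratio test (0.053). At 0 DAT the same 21 transcripts had 2 higher and 10 lower calls with a median of −0.36, beside 24.3% of all transcripts called at that time, and 6 of the 21 were called in the difference between 1 and 0 DAT, beside 7.05% of all.

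**Figure D3:**
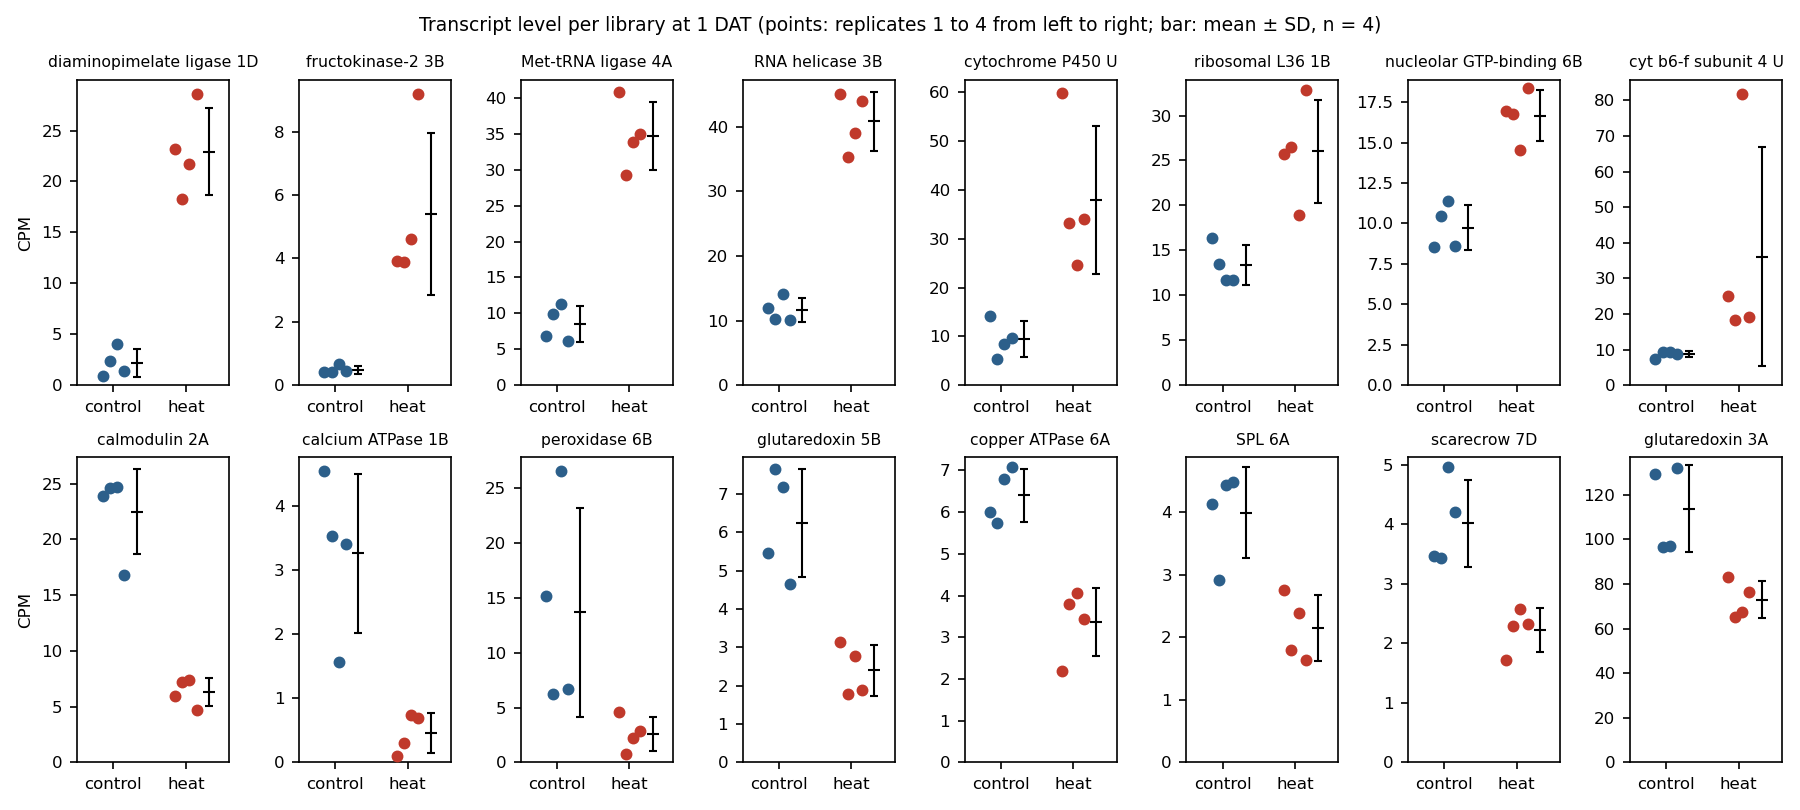
CPM of 16 annotated transcripts in each library of 1 DAT, 1 panel per transcript, with control (blue) and heat (red) replicates 1 to 4 from left to right and the mean ± SD of each group. In the panel of cytochrome b6-f subunit 4 the heat replicate 3 point at 81.9 CPM lies apart from the other 3 heat points at 18.4 to 24.9.

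Of 16 nucleolar and RNA-processing transcripts, 4 were higher and none lower, beside 7.32% and 6.18% of all transcripts, with a median of 0.24, and the 12 others did not pass. An ATP-dependent RNA helicase, TraesCS3B01G568500.1, read 12, 10.2, 14.1 and 10.1 CPM in control and 45.1, 35.3, 39.0 and 44.0 CPM in heat. Every heat library was more than 2 times the highest control library, and the log2 fold change was 1.82 ± 0.16 (edgeR adjusted p = 5.4e-07). Nucleolar GTP-binding protein 1, a factor of large ribosomal subunit assembly in yeast, read 8.53, 10.5, 11.4 and 8.59 CPM in control and 16.9, 16.7, 14.5 and 18.4 CPM in heat (TraesCS6B01G072400.1, 0.78 ± 0.14, edgeR adjusted p = 0.00084). It had been lower in heat at 0 DAT (−0.49, adjusted p = 0.015), and the shift of 1.26 between the times passed the test (0.00054), though not under total-count scaling (0.11). The KH-domain protein TraesCS6B01G074800.1 was at 0.568 ± 0.459 CPM in control and 1.85 ± 0.429 in heat (1.64 ± 0.42, edgeR adjusted p = 0.013), a call that ended in the 8-library fit (0.10) and a value that rose to 2.29 without control library 2. Midasin, an assembly ATPase of the large ribosomal subunit in yeast, had 4.75 ± 2.49 CPM in control and 10.9 ± 3.99 in heat with overlapping groups (TraesCS1A01G143400.1, 1.18, edgeR adjusted p = 0.037). Its call ended without control library 1, 2 or 3 or heat library 3 or 4 (0.075 to 0.12), in the 8-library fit (0.097), under total-count scaling (0.15), without the filter (0.063) and without rich libraries (0.057).

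Ribosomal proteins gave 2 higher calls and no lower one among 8 tested (7.32% and 6.18% over all transcripts), with a median of 0.19. L36 of the cytosolic large subunit read 16.4, 13.5, 11.8 and 11.7 CPM in control and 25.7, 26.5, 18.96 and 32.9 CPM in heat (TraesCS1B01G294200.1, 0.97 ± 0.18, edgeR adjusted p = 0.0008). L5 of the 50S type found in organelles was at 8.67 ± 0.915 CPM in control and 12.8 ± 3.37 in heat, with overlap (TraesCS1D01G128800.1, 0.57, edgeR adjusted p = 0.041). The L5 call ended without control library 2 of 0 DAT, without control library 1, 3 or 4 or heat library 2 or 4 of 1 DAT (0.051 to 0.16), in the 8-library fit (0.11), under total-count scaling (0.17) and without the filter (0.083). Aminoacyl-tRNA ligases, which load amino acids onto tRNAs, went both ways, with 1 of 7 tested members of their list higher and 2 lower, beside the same shares. Methionine--tRNA ligase (TraesCS4A01G051900.2) read 6.80, 9.87, 11.4 and 6.18 CPM in control and 40.8, 29.3, 33.9 and 34.9 CPM in heat, a log2 fold change of 2.02 ± 0.22 (edgeR adjusted p = 4e-06). Its effect at 0 DAT was 0.29 and did not pass, and the difference of 1.73 between the times did (0.0015). Leucine--tRNA ligase (TraesCS1D01G221400.1) was at 4.34 ± 1.93 CPM in control and 1.68 ± 0.668 in heat, and tyrosine--tRNA ligase (TraesCS2B01G068200.1) at 6.37 ± 2.08 and 2.83 ± 1.54. Their log2 fold changes were −1.33 and −1.12 (edgeR adjusted p = 0.024 and 0.038), with overlapping groups in both. The leucine call ended without control library 1 or 4 or heat library 1 or 3 (0.068 to 0.083), and the tyrosine call without control library 1, 2 or 3 or heat library 1, 3 or 4, or without control library 3 of 0 DAT (0.05 to 0.12). Both also ended in the 8-library fit (0.11 and 0.17), under total-count scaling (0.15 and 0.17) and without rich libraries (0.11 and 0.067), and the tyrosine call without the filter (0.072).

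Proteins of organelle gene expression fell into 3 lists, read beside the 13.5% of all transcripts called. Of 9 tested mitochondrial transcription termination factors (mTERF), proteins that bind organelle nucleic acids, 1 was higher, 6 had a positive log2 fold change and the median was 0.82, beside −0.04 over all transcripts. The called one, TraesCS6B01G395300.1, read 0.40, 0.504, 0.653 and 0.358 CPM in control and 1.24, 0.797, 1.29 and 1.97 CPM in heat (1.45 ± 0.42, edgeR adjusted p = 0.023). At these counts the call ended without control library 1 or 4 or heat library 4 (0.06 to 0.094) and without the filter (0.06). None of 5 tested pentatricopeptide repeat proteins, which edit and splice organelle RNA, was called (edgeR, median −0.09), nor had any an unadjusted p under 0.05 or a call by DESeq2. Among 4 other organelle RNA and splicing factors, 2 were higher. CRS2-associated factor 1, which in maize acts in the splicing of chloroplast introns, was at 2.20 ± 0.689 CPM in control and 4.17 ± 0.802 in heat (TraesCS6D01G100100.2, 0.92 ± 0.25, edgeR adjusted p = 0.016). That call ended without heat library 1 (0.068), in the 8-library fit (0.086) and under total-count scaling (0.10). ROOT PRIMORDIUM DEFECTIVE 1 was at 3.74 ± 1.14 and 5.77 ± 0.936 CPM with overlap (TraesCS5B01G040600.1, 0.63, edgeR adjusted p = 0.035), after a lower value in heat at 0 DAT (−0.55, adjusted p = 0.038) and with a difference of 1.18 between the times (0.01, and 0.14 under total-count scaling). Its 1 DAT call ended without control library 1, 2 or 4 or heat library 2, 3 or 4 (0.05 to 0.11), in the 8-library fit (0.15), without the filter (0.079) and without rich libraries (0.09).

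Calcium proteins were the group with the lowest median. All 6 tested members had a negative log2 fold change, from −2.87 to −0.16 with a median of −1.08, and 2 of them passed, beside 6.18% of all transcripts called lower. Calmodulin, the calcium sensor that switches its partner enzymes, read 23.9, 24.6, 24.7 and 16.8 CPM in control and 6.00, 7.18, 7.36 and 4.72 CPM in heat (TraesCS2A01G166300.1). The lowest control library was more than 2 times the highest heat library, and the log2 fold change was −1.84 ± 0.19 (edgeR adjusted p = 1.5e-06). Calmodulin was lower at 0 DAT (−1.25, adjusted p = 2.7e-05) and still at 4 DAT (−1.15, adjusted p = 0.013), when 0.18% of all transcripts were called. A calcium-transporting ATPase, a pump that removes calcium from the cytosol, read 4.53, 3.53, 1.57 and 3.40 CPM in control and 0.0952, 0.299, 0.736 and 0.687 CPM in heat (TraesCS1B01G324000.1, −2.87 ± 0.67, edgeR adjusted p = 0.0064). Its call held in every refit that left out a library. This transcript is a listed target of a miR1137, and its site is shown because the 24 bases pair without a mismatch over the whole miRNA. In each miRNA the capitals mark the seed, bases 2 to 8, and in each site they mark the bases opposite miRNA positions 10 and 11, and all are written 5′ to 3′ in DNA letters from the study's table.
miR1137 of 24 bases: aAATAGATgacccaactttgtact
Site in TraesCS1B01G324000.1: agtacaaagttggGTcatctattt
The same miRNA is listed for methionine--tRNA ligase, which moved the other way, at a site with 3 mismatches, at miRNA positions 12, 13 and 23.
Site in TraesCS4A01G051900.2: aatacaaagttaaGTcatctattt

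Redox enzymes had 3 lower calls and no higher one among 10 tested, beside 6.18% and 7.32% of all transcripts, with a median of 0.01. A peroxidase, TraesCS6B01G063800.1, read 15.2, 6.25, 26.5 and 6.71 CPM in control and 4.57, 0.797, 2.21 and 2.83 CPM in heat. The control libraries spread widely and the groups still did not overlap (−2.37 ± 0.50, edgeR adjusted p = 0.0032). Glutaredoxins reduce disulfides with glutathione, and the more abundant called one, TraesCS3A01G158800.1, read 129, 96.6, 97.0 and 132 CPM in control and 82.9, 65.2, 67.2 and 76.4 CPM in heat (−0.64 ± 0.14, edgeR adjusted p = 0.0042). The call of this glutaredoxin ended in the 8-library fit (0.064) and under total-count scaling (0.17). The other, TraesCS5B01G048900.1, was at 6.24 ± 1.42 CPM in control and 2.40 ± 0.661 in heat (−1.39 ± 0.43, edgeR adjusted p = 0.038). Its call ended without control library 1, 2 or 3 or heat library 2, 3 or 4, without heat library 4 of 0 DAT (0.05 to 0.11), under total-count scaling (0.086), without the filter (0.064) and without rich libraries (0.081). The copper-zinc superoxide dismutases that belong to the targets of miR398, TraesCS2B01G417000.1 and TraesCS2A01G399000.1, had log2 fold changes of 0.70 ± 0.24 and 0.25 ± 0.24 that did not pass (edgeR adjusted p = 0.062 and 0.58). That outcome depended on the method. Of these 2 dismutases, 1 had an unadjusted p under 0.05, 1 passed in the likelihood ratio test and 1 passed with DESeq2.

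Metal proteins split evenly, with 2 of 10 higher and 2 lower, beside 7.32% and 6.18% of all transcripts, and a median of 0.25. PLANT CADMIUM RESISTANCE 2, which exports zinc and cadmium in Arabidopsis, read 42.4, 27.1, 16.5 and 31.0 CPM in control and 12.5, 13.0, 7.92 and 9.44 CPM in heat (TraesCS1B01G418800.1, −1.44 ± 0.44, edgeR adjusted p = 0.033). Its call ended without control library 1, 2 or 4 or heat library 1, 3 or 4 (0.052 to 0.11), under total-count scaling (0.11), without the filter (0.051) and without rich libraries (0.094). Copper-transporting ATPases, which load copper into compartments, differed from each other. TraesCS7A01G239700.1 read 9.998, 10.4, 15.02 and 9.40 CPM in control and 19.9, 15.6, 21.5 and 19.9 CPM in heat (0.78 ± 0.16, edgeR adjusted p = 0.0021). TraesCS6A01G158900.1 read 6.00, 5.74, 6.79 and 7.07 CPM in control and 2.19, 3.79, 4.05 and 3.43 CPM in heat (−0.94 ± 0.25, edgeR adjusted p = 0.015). The lower one is a listed target of a miR528, and the call ended without heat library 1 (0.061) and under total-count scaling (0.16). Ferritin, the iron store, was at 3.004 ± 0.603 CPM in control and 5.36 ± 2.01 in heat, with overlap (TraesCS4A01G180700.2, 0.81, edgeR adjusted p = 0.039). The ferritin value was 0.57 without heat library 3 (adjusted p = 0.15), and its call also ended without control library 1, 2 or 3 or heat library 4 (0.076 to 0.098), in the 8-library fit (0.12), under total-count scaling (0.10), without the filter (0.079) and without rich libraries (0.14). At 0 DAT ferritin had been higher by 2.09 (adjusted p = 4.5e-06), and the difference of −1.28 between the times (0.033) ended in the fit of the 16 libraries of 0 and 1 DAT (0.055), without the filter (0.066), and without any of control libraries 1, 2 and 4 and heat libraries 2 and 3 of 0 DAT or control libraries 2 and 4 and heat libraries 1 and 2 of 1 DAT (0.057 to 0.078).

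Metabolic enzymes included the annotated transcript with the highest fold change. Fructokinase-2, which phosphorylates fructose for glycolysis and starch, read 0.40, 0.403, 0.653 and 0.448 CPM in control and 3.90, 3.89, 4.60 and 9.18 CPM in heat (TraesCS3B01G397500.1, 3.48 ± 0.45, edgeR adjusted p = 2.8e-05). All 4 tested members of its list, sugar metabolism and transport, had positive values, the other 3 without passing, and the median was 0.89. Cytochrome P450s, monooxygenases of hormone and defence metabolism, had 2 of 4 higher and none lower, beside 7.32% and 6.18% of all transcripts. The P450 TraesCSU01G247100.1 read 14.3, 5.34, 8.36 and 9.58 CPM in control and 59.8, 33.2, 24.7 and 34.1 CPM in heat (2.02 ± 0.29, edgeR adjusted p = 6.7e-05). Its effect exceeded that of 0 DAT by 1.54 (0.02), a call that ended without heat library 1 of 1 DAT (0.056) and under total-count scaling (0.23). TraesCS1B01G347700.1 read 38.9, 28.4, 21.5 and 29.9 CPM in control and 151, 66.4, 76.8 and 120 CPM in heat (1.80 ± 0.29, edgeR adjusted p = 0.00022). Both P450 calls held in every refit that left out a library.

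Lipid metabolism gave 1 higher and 3 lower calls among 14 tested, beside 7.32% and 6.18% of all transcripts, with a median of −0.37. A lipase read 10.1, 7.96, 10.8 and 8.24 CPM in control and 25.4, 21.2, 24.5 and 23.9 CPM in heat (TraesCS2D01G362500.1, 1.36 ± 0.20, edgeR adjusted p = 0.00012). The lower calls held both an enzyme type that adds fatty acids to proteins and one that removes them. The S-acyltransferase TraesCS2B01G585200.1 read 4.67, 3.73, 3.79 and 4.48 CPM in control and 2.76, 2.79, 1.84 and 2.15 CPM in heat (−0.79 ± 0.16, edgeR adjusted p = 0.0019). It had no difference that passed at 0 DAT (0.07), and the change of −0.86 between the times passed (0.019), though not without the filter (0.09). Its 1 DAT call ended in the 8-library fit (0.073) and under total-count scaling (0.093). Acyl-protein thioesterase 2 read 8.27, 9.57, 11.9 and 10.2 CPM in control and 4.48, 6.08, 6.07 and 4.21 CPM in heat (TraesCS3B01G193000.1, −0.95 ± 0.19, edgeR adjusted p = 0.0017). Squalene monooxygenase, of sterol synthesis, was at 63.0 ± 14.9 CPM in control and 38.9 ± 5.42 in heat with overlap (TraesCS4B01G235500.1, −0.69, edgeR adjusted p = 0.041). The last call ended without any of control libraries 1, 2 and 3 and heat libraries 2, 3 and 4 of 1 DAT or control libraries 1, 3 and 4 and heat libraries 1 and 4 of 0 DAT (0.051 to 0.13), in the 8-library fit (0.085), without the filter (0.07) and without rich libraries (0.071).

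Amino acid, nitrogen and sulfur metabolism had 2 of 16 higher and none lower, beside 7.32% and 6.18% of all transcripts, with a median of 0.23. A branched-chain amino acid aminotransferase was at 5.58 ± 1.08 CPM in control and 9.27 ± 1.22 in heat (TraesCS6A01G172400.1, 0.73 ± 0.21, edgeR adjusted p = 0.026), and another aminotransferase at 31.7 ± 8.71 and 49.0 ± 3.14 CPM (TraesCS1B01G102700.1, 0.63 ± 0.20, edgeR adjusted p = 0.038). The first call ended without control library 1, 2 or 4 or heat library 1 or 3 (0.051 to 0.083). The second ended without control library 1, 3 or 4 or any 1 heat replicate (0.053 to 0.11), in the 8-library fit (0.087), under total-count scaling (0.22), without the filter (0.074) and without rich libraries (0.064). ATP sulfurylase opens sulfate assimilation, and its transcripts are classical targets of miR395. The 3 homoeologs on 5A, 5B and 5D had log2 fold changes of 0.13 to 0.32 at 1 DAT that did not pass (edgeR adjusted p = 0.66 to 0.87). All 3 had been lower in heat at 0 DAT, by −1.51 on 5A, −2.01 on 5B and −1.59 on 5D, and the differences between the times, 1.83, 2.31 and 1.72, passed the test (adjusted p = 0.046, 0.018 and 0.039). The difference on 5B held in every refit. Those on 5A and 5D ended under total-count scaling (0.074 and 0.095), without the filter (0.064 and 0.053) and with the replicate number as a block over pools (0.11 and 0.10). They also ended without control library 1, 3 or 4 or heat library 1, 3 or 4 of 0 DAT or control library 1, 2 or 4 or heat library 1 or 3 of 1 DAT, and that on 5A without control library 2 of 0 DAT, heat replicate 2 of 1 DAT or control library 1, 2 or 3 of 4 DAT (0.051 to 0.097).

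Of 30 kinases, receptor kinases and phosphatases, 1 was higher and 1 lower, beside 7.32% and 6.18% of all transcripts, with a median of −0.30. The higher one, TraesCS5B01G059000.1, is annotated with a protein kinase domain, a leucine-rich repeat and an NB domain. It read 7.73, 11.7, 10.7 and 12.8 CPM in control and 20.9, 15.8, 18.2 and 20.2 CPM in heat (0.80 ± 0.17, edgeR adjusted p = 0.0035), with a call that ended under total-count scaling (0.084). A lectin-domain kinase fell from 0.74 ± 0.285 to 0.138 ± 0.0467 CPM (TraesCS4A01G487000.1, −2.36 ± 0.66, edgeR adjusted p = 0.021), with a call that ended without control library 1 or 2 or heat library 1 or 2 (0.055 to 0.067) and under total-count scaling (0.067). Disease resistance and defence transcripts had 2 of 14 higher, with a median of 0.18, and 1 of the 2 was TraesCS5B01G059000.1 again, which is in both lists. The NBS-LRR-like receptor TraesCS3B01G554500.1 was at 0.564 ± 0.159 CPM in control and 1.61 ± 0.703 in heat (1.48 ± 0.38, edgeR adjusted p = 0.011), and the call ended without rich libraries (0.057). Transporters had 1 of 18 higher, the aquaporin TraesCS7D01G217400.1, a water channel, at 1.27 ± 0.399 CPM in control and 3.09 ± 0.597 in heat (1.28 ± 0.32, edgeR adjusted p = 0.011). Of 8 DNA and chromatin transcripts 1 was lower, an Enhancer of polycomb-like protein, a relative of a subunit of a yeast histone acetyltransferase, at 12.1 ± 2.14 and 8.50 ± 1.08 CPM (TraesCS6B01G005300.1, −0.51 ± 0.12, edgeR adjusted p = 0.0095). It lost its call without control library 4 (0.054), in the 8-library fit (0.13), under total-count scaling (0.34) and without rich libraries (0.065). Outside these lists, RMD1, named for sporulation in yeast, was at 11.2 ± 3.52 CPM in control and 22.6 ± 3.24 in heat (TraesCS2A01G082000.1, 1.02 ± 0.22, edgeR adjusted p = 0.0039). Phosphopantothenoylcysteine decarboxylase of coenzyme A synthesis was at 6.03 ± 1.53 and 3.41 ± 0.898 CPM (TraesCS7D01G163900.1, −0.81 ± 0.19, edgeR adjusted p = 0.0062), and its call ended in the 8-library fit (0.11) and under total-count scaling (0.18). A katanin subunit, part of an enzyme that severs microtubules, was at 7.26 ± 1.10 and 4.00 ± 1.75 CPM with overlap (TraesCS3A01G294400.1, −0.87, edgeR adjusted p = 0.0079), and its call ended in the 8-library fit (0.13).

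A further 4 lists gave no call at 1 DAT by edgeR, beside 13.5% of all transcripts called, and in lists of 4 to 23 members a count of 0 is only a description. The 6 tested chaperones and protein quality control transcripts all had positive log2 fold changes, 0.23 to 0.62 with a median of 0.41, and none passed. No call came from 23 F-box and ubiquitin proteins, which mark proteins for degradation (−2.06 to 0.84, median −0.08), 6 small RNA pathway proteins (median 0.27) or 4 cell wall proteins (median 0.11). At an unadjusted p under 0.05 these 4 lists had 0, 1, 2 and 1 members, and DESeq2 called 1, a cell wall protein. These lists hold only transcripts of the miRNA target table and are not the whole families.

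Transcription factors that are classical miRNA targets were mostly not called, as held for all transcripts, of which 13.5% were called and 6.18% called lower. Of 11 tested SPL factors, which time the change from juvenile to adult growth and are targets of miR156, 10 had a negative log2 fold change (−0.90 to 0.05, median −0.31) and 1 was called. TraesCS6A01G155300.1 read 4.13, 2.92, 4.44 and 4.48 CPM in control and 2.76, 1.79, 2.39 and 1.63 CPM in heat (−0.90 ± 0.28, edgeR adjusted p = 0.036). Its groups did not overlap, and the call ended without control library 1, 3 or 4 or heat library 2, 3 or 4 (0.057 to 0.12), in the 8-library fit (0.078), under total-count scaling (0.091), without the filter (0.079) and without rich libraries (0.077). Of 9 scarecrow and GRAS factors, which pattern roots and meristems, 8 had a negative value (median −0.47) and 1 was called. TraesCS7D01G011400.1, a listed target of miR171, read 3.47, 3.43, 4.96 and 4.21 CPM in control and 1.71, 2.29, 2.58 and 2.32 CPM in heat (−0.86 ± 0.26, edgeR adjusted p = 0.033). That call ended without control library 3 or 4 or heat library 1, 2 or 4 (0.06 to 0.11), in the 8-library fit (0.07), under total-count scaling (0.19) and without the filter (0.076). No call was made among 4 homeobox leucine-zipper factors (−0.25 to 0.18), 9 subunits of nuclear factor Y (−0.66 to 0.46), 6 auxin receptors of the TIR1 kind (−0.59 to 0.18) and 2 auxin response factors (−0.07 and 0.35) by edgeR, nor by DESeq2, and 1 of these, a TIR1-like receptor, had an unadjusted p under 0.05. At 0 DAT 1 TIR1-like receptor and 1 homeobox leucine-zipper factor were higher in heat, and both differed between the times, while another TIR1-like receptor, TraesCS2A01G286200.1, stood below control then, at −0.61 (adjusted p = 0.0053 by edgeR). For the higher receptor, TraesCS2B01G302900.1, the log2 fold change was 1.06 at 0 DAT and −0.10 at 1 DAT (difference −1.15, edgeR adjusted p = 0.032). That difference ended without the filter (0.073) and without control library 2, 3 or 4 or heat library 1 or 3 of 0 DAT or control library 1 or 4 or heat library 1 or 2 of 1 DAT (0.054 to 0.074). For the leucine-zipper factor, TraesCS5A01G375800.1, it was 1.61 and −0.25 (difference −1.86, edgeR adjusted p = 0.0074).

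The sites of called targets of 5 further miRNA families are shown because the study's table ties each of these messages to a named miRNA. Pairing is counted over the miRNA, with G:U pairs apart from mismatches.
miR156-1.1-5p: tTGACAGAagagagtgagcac
Site in SPL TraesCS6A01G155300.1: gtgctctctcTCttctgtcag
miR171-2-3p: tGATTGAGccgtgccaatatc
Site in scarecrow TraesCS7D01G011400.1: gatattggcgCGgctcaatca
miR528-1.2-5p: tGGAAGGGgcatgcagaggag
Site in copper-transporting ATPase TraesCS6A01G158900.1: ctcctctgcaGccccttccg
miR9662-1.7-3p: tTGAACATcccagagccac
Site in mTERF TraesCS6B01G395300.1: gtggctctGGgatgttcag
miR9662-1.6-3p: tGAACATCccagagccacc
Site in TatC TraesCS3B01G224200.1: ggtggtgcGTggatggtca
miR9772-2.1-5p: tTGAGATGagattaccccata
Site in glutaredoxin TraesCS3A01G158800.1: gatggagtaaTCtcttgtaaa
The SPL site has 1 mismatch at position 15 and a G:U pair at position 1, and the scarecrow site no mismatch and a G:U pair at position 12. The copper-transporting ATPase site is 20 bases long, with a gap at position 11, so that a single base is in capitals. The mTERF site pairs with the 19 bases of its miRNA with a G:U pair at position 1 and no mismatch. The TatC site, the same in the A and B copies, has 4 mismatches at positions 4, 10, 11 and 13, and the glutaredoxin site 5 mismatches. By direction, the miR156, miR171, miR528 and miR9772 families each had 1 lower and no higher call among 11, 8, 3 and 5 tested targets, and miR9662 had 3 higher and no lower among 8 (edgeR). The 2 largest families by tested targets, miR1135 with 116 and miR1137 with 62, had 7 higher with 9 lower and 7 higher with 2 lower. Over all transcripts 7.32% were higher and 6.18% lower, and the counts in these families are a description only. The level of the miRNAs was not analysed here.

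Against the other sampling times, 1 DAT was intermediate in the number of calls. Heat against control gave 13231 calls at 0 DAT (24.3% of transcripts, with 5979 or 11% higher and 7252 or 13.3% lower) and 98 at 4 DAT (0.18%, with 38 or 0.0697% higher and 60 or 0.11% lower). Of the 3988 higher transcripts of 1 DAT, 1864 (46.7%) were also called higher at 0 DAT, which was 31.2% of the higher calls of 0 DAT, 154 (3.86%) were called lower there, and 1970 were not called. Of the 3370 lower transcripts, 1748 (51.9%) were called lower at 0 DAT, 24.1% of the lower calls of that time, 118 (3.5%) were called higher and 1504 were not called. The 3 times used different libraries but 1 fit. By the study's methods 432 leaf samples came from 144 plants, so the same plants were sampled at each time. Whether a replicate number marks the same pool of plants in the RNA-seq libraries of each time is not stated. In 3 libraries of 4 DAT, TraesCS1A01G000100.1 held 3.67 to 4.57% of counts. The calls of heat against control at 4 DAT were not refitted without those libraries, so how far their low number depends on them was not tested. At 4 DAT 31 of the higher and 47 of the lower transcripts were called in the same direction, 81.6% and 78.3% of the calls of that time, and none in the opposite one. In sampling order, the higher transcripts had median log2 fold changes of 0.62, 1.11 and 0.18 and the lower ones −0.68, −0.93 and −0.24. The middle value comes from the calls themselves and is a description.

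Tested directly, heat effects at 1 and 0 DAT were unequal for 3843 transcripts (7.05%), 2428 (4.45%) with a higher and 1415 (2.6%) with a lower log2 fold change at 1 DAT (edgeR interaction contrast). This test took the libraries of the times as independent, although the same plants were sampled at each time. With the replicate number as a block for pools of plants, a pairing the labels do not state, 2410 were called. Total-count scaling gave 739 higher and 1689 lower calls in place of these and moved the median over all transcripts from −0.02 to −0.46. Between 4 and 1 DAT 1015 differed (1.86%), 170 higher (0.312%) and 845 lower (1.55%), and with that block 0.726% of transcripts differed. Total-count scaling moved that median from 0.03 to −0.12.

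**Figure D4:**
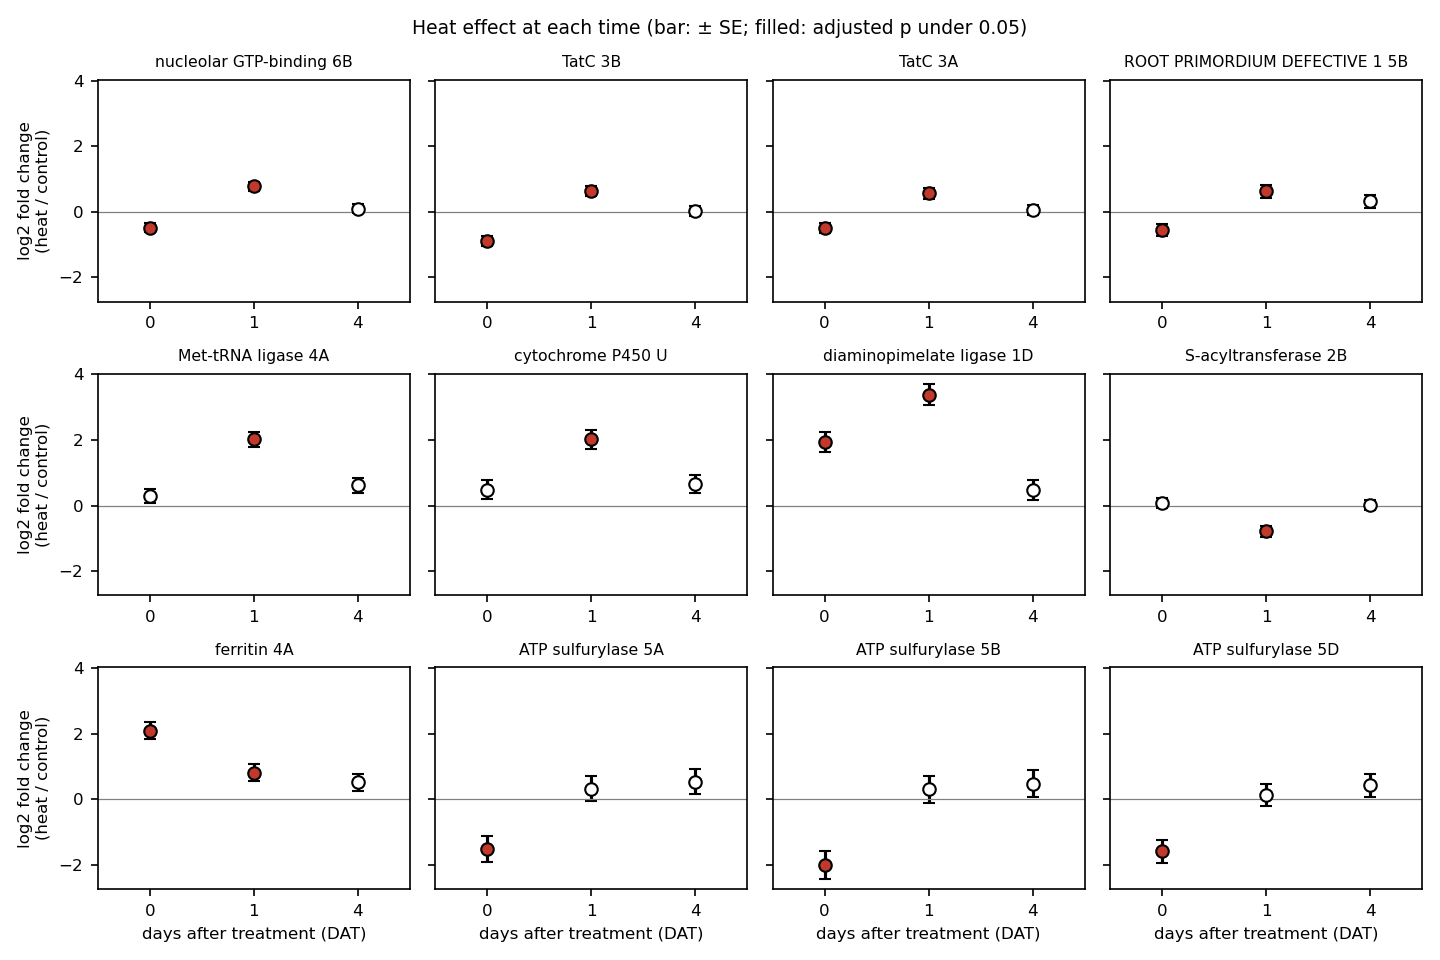
Log2 fold change of heat against control ± SE at 0, 1 and 4 DAT for 12 transcripts, 1 panel each, with filled points where the adjusted p was under 0.05 and a line at 0. Both TatC transcripts lie below 0 at 0 DAT and above 0 at 1 DAT, the 3 ATP sulfurylases lie between −2.01 and −1.51 at 0 DAT and between 0.13 and 0.32 at 1 DAT, and ferritin lies above 0 at all 3 times.

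Without regard to annotation, the transcripts with the highest fold change among calls of at least 20 CPM and no overlap were TraesCS2A01G034200.1 and TraesCS2A01G034300.1, neighbours with the same value in every library. Both read 0.667, 0.806, 0.522 and 0.179 CPM in control and 43.0, 67.6, 112 and 1.03 CPM in heat (6.68 ± 1.04, edgeR adjusted p = 0.00018). Heat replicate 4 stood close to the controls, and the others were far above. TraesCS5A01G548000.3 read 0, 0.302, 0.392 and 2.51 CPM in control and 61.4, 33.5, 38.1 and 64.7 CPM in heat (5.78 ± 0.63, edgeR adjusted p = 3.6e-06, 7.64 without control library 4), and it was higher at all 3 times (6.11 at 0 DAT, 3.62 at 4 DAT, adjusted p = 0.026). TraesCS1B01G352400.1 had the same course, with 2.40, 1.81, 1.70 and 7.61 CPM in control and 111, 35.5, 34.2 and 111 CPM in heat (4.39 ± 0.61, 5.23 without control library 4, edgeR adjusted p = 5.7e-05), 5.66 at 0 DAT and 3.76 at 4 DAT (0.027). By contrast TraesCS6B01G246400.1 was high at 1 DAT and had no difference that passed at 0 DAT (0.26) or 4 DAT (0.72). It read 0.667, 2.32, 0.653 and 0.448 CPM in control and 17.4, 38.4, 20.2 and 15.4 CPM in heat (4.45 ± 0.84, 5.28 without control library 2, edgeR adjusted p = 0.0012), and the difference between 1 and 0 DAT was 4.19 (0.021, and 0.073 without control library 2 of 0 DAT). TraesCS3B01G066800.1 owed its place to 1 library, with 3.81, 2.69, 188 and 3.60 CPM in heat and 0.504 to 1.96 CPM in control. Its log2 fold change of 5.51 (edgeR adjusted p = 0.02) was 1.66 without heat library 3 (0.42), and its call also ended without control library 1, 2 or 4 (0.053 to 0.059), in the 8-library fit (0.076) and without rich libraries (0.059).

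By the rise in mean CPM, TraesCS4A01G177600.1, TraesCS4B01G140200.1 and TraesCS4D01G134900.1 led. The first read 31.99, 51.3, 16.8 and 54.9 CPM in control and 526, 519, 482 and 1124 CPM in heat (4.09 ± 0.49, edgeR adjusted p = 1.1e-05). TraesCS4B01G140200.1 read 48.7, 84.3, 15.1 and 89.2 CPM in control and 480, 565, 449 and 968 CPM in heat (3.37 ± 0.64, edgeR adjusted p = 0.0012). TraesCS4D01G134900.1 read 105, 144, 30.3 and 240 CPM in control and 558, 596, 488 and 1075 CPM in heat (2.39 ± 0.66, edgeR adjusted p = 0.018), and the call ended without control library 1 (0.055), heat replicate 4 (0.055) and under total-count scaling (0.063). All 3 had heat libraries apart from the controls and larger effects at 0 DAT, 7.11, 6.20 and 4.97, and the decline to 1 DAT passed for the first and the second (−3.02 and −2.83, edgeR adjusted p = 0.0053 and 0.045) and not for the third (−2.58, 0.089). The second decline ended under total-count scaling (0.066), without the filter (0.073), without rich libraries (0.073) and without any 1 of 16 libraries (0.052 to 0.093), namely all 8 of 0 DAT, control replicates 1, 2 and 4 and heat libraries 1, 2 and 3 of 1 DAT, and control library 3 and heat library 2 of 4 DAT. TraesCS7D01G032800.2 and TraesCSU01G009200.1 rose from 95.9 ± 35.9 to 466 ± 78.3 CPM and from 64.4 ± 36.01 to 397 ± 78.9 CPM (2.28 ± 0.23 and 2.63 ± 0.32, edgeR adjusted p = 1.5e-06 and 1.2e-05).

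On the lower side, TraesCS6D01G065100.1 had the lowest fold change of this choice, with 19.6, 21.6, 28.6 and 12.4 CPM in control and 0.476, 1.10, 2.95 and 0.343 CPM in heat (−4.29 ± 0.56, edgeR adjusted p = 2.7e-05, −5.003 without heat library 3). TraesCS5D01G050100.1 read 32.1, 29.4, 10.97 and 17.6 CPM in control and 1.62, 3.49, 2.02 and 1.63 CPM in heat (−3.36 ± 0.55, edgeR adjusted p = 0.0003), and was lower at 0 DAT (−3.59) and 4 DAT (−2.54, 0.042) too. TraesCS4B01G348600.1 had 35.4 ± 10.9 CPM in control and 3.62 ± 1.79 in heat (−3.29 ± 0.67, edgeR adjusted p = 0.0023) and TraesCS7D01G023300.1 had 30.0 ± 19.3 and 3.42 ± 2.97 CPM (−3.13 ± 0.62, 0.0017, −3.98 without heat library 1). The largest falls in mean CPM were uneven among controls. TraesCS5A01G391500.1 read 172, 271, 177 and 925 CPM in control and 29.9, 29.6, 24.9 and 74.2 CPM in heat (−3.28 ± 0.55, edgeR adjusted p = 0.0004, −2.36 without control library 4). TraesCS5D01G401300.1 read 129, 228, 110 and 961 CPM in control and 13.997, 9.57, 6.26 and 82.6 CPM in heat (−3.65 ± 0.85, edgeR adjusted p = 0.0066). Replicate 4 was the highest library of each group in both, and the latter value was −2.44 without control library 4, −5.12 without heat library 4 and lost its call in the 8-library fit (0.07). TraesCS4D01G207500.1, TraesCS3B01G601100.1 and TraesCS4A01G097900.1 fell from 565 ± 257 to 144 ± 42.5 CPM, from 469 ± 85.6 to 184 ± 20.8 CPM and from 404 ± 209 to 126 ± 48.5 CPM (edgeR adjusted p = 0.00042, 2.4e-05 and 0.0046).

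Some called genes were neighbours. In gene order along the chromosomes, 13 runs of 3 neighbours were all higher and 12 all lower, and the 3 longest runs of any length were all lower. Runs of 2 were more numerous in both directions. Whether called genes lay together more often than their number alone would give was not tested, so these counts are a description. The 3 longest runs were picked from the same calls. On 5D, 7 genes in a row, TraesCS5D01G488300 to TraesCS5D01G488900, were called. TraesCS5D01G488800.2 read 7.07, 12.9, 2.48 and 3.40 CPM in control and 0.286, 0.399, 0 and 0.343 CPM in heat (−4.44 ± 0.84, edgeR adjusted p = 0.0012), and was lower at 0 DAT (−6.59) and 4 DAT (−5.45, 0.013). TraesCS5D01G488600.1 and TraesCS5D01G488700.1 had identical values, so they are not separate measurements here, and TraesCS5D01G488300.1 and TraesCS5D01G488400.1 had a count of 0 in all 4 heat libraries. Control replicate 2 was the highest library for all 7. Without it the log2 fold changes of TraesCS5D01G488500.1, TraesCS5D01G488800.2, TraesCS5D01G488900.1 and TraesCS5D01G488300.1 were −2.85, −3.86, −2.90 and −7.26 (−3.81, −4.44, −3.65 and −8.01 with it), all still called, and that of TraesCS5D01G488900.1 was −4.30 without heat library 4. TraesCS5D01G488400.1 lost its call without any 1 of 12 libraries (0.051 to 0.11), namely control replicates 1, 2 and 4 and all 4 heat replicates of 1 DAT, control replicates 1, 2 and 3 of 0 DAT and heat libraries 1 and 2 of 4 DAT, as well as under total-count scaling (0.055), without the filter (0.058) and without rich libraries (0.11).

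The run on 5A held 5 genes, TraesCS5A01G004500 to TraesCS5A01G004900, again with control replicate 2 the highest. TraesCS5A01G004700.1 read 5.73, 22.6, 4.57 and 7.34 CPM in control and 0.667, 1.59, 0.92 and 0.601 CPM in heat (−3.41 ± 0.83, edgeR adjusted p = 0.0084, −2.64 without control library 2). TraesCS5A01G004600.1 was at 10.3 ± 5.58 and 1.29 ± 1.01 CPM (−2.96 ± 0.68, edgeR adjusted p = 0.0056, −3.57 without heat library 2). Calls of the other 3 ended without control library 2, at −3.86 for TraesCS5A01G004500.1 (adjusted p = 0.13), −3.03 for TraesCS5A01G004800.1 (0.058) and −2.73 for TraesCS5A01G004900.1 (0.11), against −5.50, −4.25 and −3.76 with it. TraesCS5A01G004500.1 also lost its call without any 1 heat replicate (0.053 to 0.074) and without rich libraries (0.05), TraesCS5A01G004900.1 without heat library 1, 2 or 3 (0.053 to 0.066) and under total-count scaling (0.051), and without heat library 1 the former stood at −7.16 and without heat library 4 the latter at −4.98. The run on 7D, TraesCS7D01G516600 to TraesCS7D01G517000, was measured at higher counts. TraesCS7D01G516600.1 read 77.6, 75.0, 56.0 and 91.8 CPM in control and 37.4, 29.3, 32.2 and 36.8 CPM in heat (−1.14 ± 0.16, edgeR adjusted p = 7.7e-05), TraesCS7D01G516800.1 was at 71.1 ± 28.0 and 22.9 ± 6.86 CPM (−1.63 ± 0.27, 0.00031) and TraesCS7D01G517000.1 at 7.83 ± 4.64 and 1.25 ± 0.727 CPM (−2.72 ± 0.47, 0.00048). TraesCS7D01G516700.1 (−1.56) and TraesCS7D01G516900.1 (−1.19) lost their calls under total-count scaling (0.053 and 0.073). At 0 DAT the 5 had log2 fold changes of −4.90 to −3.61, and for 4 of them, all but TraesCS7D01G517000.1, the difference of 2.47 to 3.27 between the times passed (edgeR adjusted p = 1.2e-05 to 0.0028), that of TraesCS7D01G516700.1 not under total-count scaling (0.095).

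**Figure D5:**
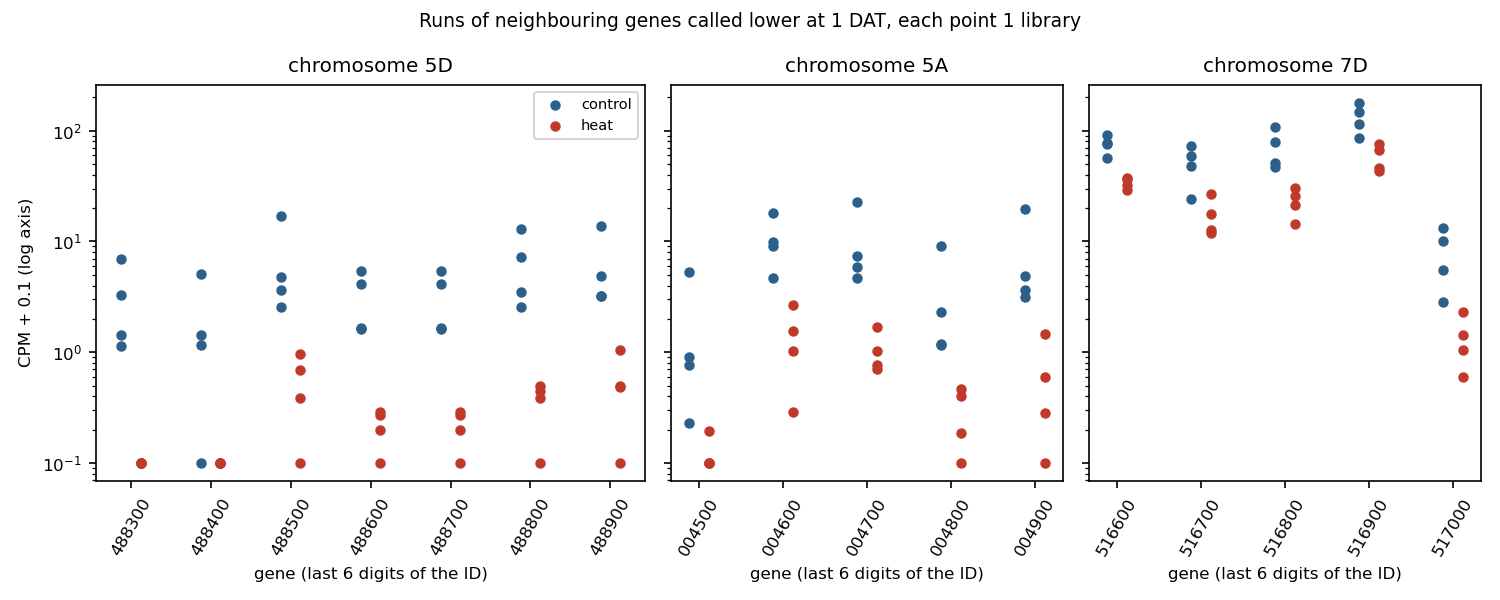
CPM + 0.1 (log axis) of the genes in the 3 longest runs of neighbours called lower at 1 DAT, in ID order along 5D, 5A and 7D, with each point a control (blue) or heat (red) library. On 7D the heat libraries lie below the control libraries for 4 of the 5 genes, and on 5A and 5D control replicate 2 is the highest point of each gene.

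Some genes had transcripts that went opposite ways. Of 5791 genes with 2 or more tested transcripts, 90 had at least 2 called, and 8 of these had calls in both directions. TraesCS4D01G127500.1 had a count of 0 in all 4 control libraries and 4.67, 5.18, 7.73 and 9.87 CPM in heat, while TraesCS4D01G127500.2 read 7.73, 8.26, 8.88 and 8.33 CPM in control and 4.28, 4.48, 0 and 1.29 CPM in heat (edgeR adjusted p = 0.02 and 0.022). The second call ended without heat library 4 (0.081), in the 8-library fit (0.17) and under total-count scaling (0.073), and with counts summed per gene the difference was 0.18 (adjusted p = 0.42). TraesCS3D01G012600.2 had a count of 0 in all control libraries and 1.63 to 2.76 CPM in heat, while TraesCS3D01G012600.1 had 8.28 ± 1.31 CPM in control and 3.41 ± 0.409 in heat (edgeR adjusted p = 0.011 and 0.013), and the gene sum was lower by −0.61 (0.0023). TraesCS5B01G099300.2 read 88.1, 71.4, 143 and 54.6 CPM in control and 324, 253, 373 and 279 CPM in heat (1.78 ± 0.26), against 27.2 ± 5.63 and 15.9 ± 2.35 CPM of TraesCS5B01G099300.1 (−0.78 ± 0.20, edgeR adjusted p = 8.1e-05 and 0.013), and the gene sum rose by 1.47 (9.1e-05). The call of TraesCS5B01G099300.1 ended without control library 2 (0.052) or heat library 1 (0.053) and under total-count scaling (0.093).

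Transcripts with a count of 0 in 1 whole group and a mean of 5 CPM or more in the opposite group were few, 7 at 0 in control and 8 at 0 in heat. Beside TraesCS4D01G127500.1, the named ones at 0 in control, TraesCS6B01G117700.1, TraesCSU01G258900.1, TraesCS1A01G001200.1 and TraesCSU01G264900.1, had 45.1, 32.2, 27.8 and 23.6 CPM in heat replicate 3. Of these only TraesCS6B01G117700.1 was called (edgeR adjusted p = 0.049), at 0, 0.399, 45.1 and 0 CPM, and its adjusted p was 0.60 without heat library 3. It also lost its call without any 1 of 17 other libraries (0.051 to 0.10), under total-count scaling (0.061) and without the filter (0.071), and the 6 libraries whose removal left it were heat replicates 1, 2 and 4 of 1 DAT, control replicates 2 and 3 of 4 DAT and heat library 3 of 4 DAT. At 0 in all 4 heat libraries, TraesCS2B01G032300.2 read 10.8, 13.2, 10.97 and 1.79 CPM in control (edgeR adjusted p = 0.0004) and was also lower at 0 and 4 DAT (adjusted p = 0.00012 and 0.037). TraesCS2D01G387600.3 read 3.20, 12.9, 8.62 and 9.13 CPM in control (edgeR adjusted p = 0.029) and TraesCS3B01G168100.2 6.93, 8.16, 0 and 5.82 CPM (0.04). Calls of these last transcripts ended without control library 2 or any 1 heat replicate (0.053 to 0.071) and without control library 1, 2 or 4 or any 1 heat replicate (0.064 to 0.091), the second also under total-count scaling (0.056), without the filter (0.057), without rich libraries (0.078) and with counts summed per gene (0.067). TraesCS2B01G491700.1 had a mean of 5.59 ± 8.07 CPM in control and was not called (edgeR adjusted p = 0.11), and TraesCS5B01G022800.1, at 0, 15.7, 5.88 and 0 CPM in control, was not tested after the filter.

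No difference in how counts divided among parts of the genome passed the test. The share of counts in the 3 transcripts with the most counts was 23.3 ± 8.36% in control and 18.7 ± 4.96% in heat (SD, n = 4 per group, exact permutation test, two-sided, p = 0.31). The A subgenome took 24.9 ± 2.74% and 27.3 ± 2.02% (exact permutation p = 0.14), the B subgenome 38.2 ± 1.98% and 35.2 ± 3.57% (exact p = 0.17) and the D subgenome 35.5 ± 0.824% and 33.5 ± 3.17% (exact p = 0.14). Transcripts without an assigned chromosome took 1.30 ± 0.0682% and 3.95 ± 5.17% (exact p = 0.11), with 11.7% in heat replicate 3, and the difference of 2.65 percentage points was 0.0673 without that library. The 70 possible splits allow no p below 0.0286, so after adjustment over the 5 shares a single fully separated share could not have passed. The adjusted values were 0.21 to 0.31. The A, B, D and unassigned shares make up all counts, so they are not independent of each other.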

How the data were processed

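Leaf RNA of the 24 libraries was sequenced as paired ends on an Illumina HiSeq, trimmed with Trimmomatic and quantified with kallisto, per the submitters' processing notes. The versions and the transcript index were not given in the sources used here. The deposited values are the authors' estimated counts per transcript, of which 38.5% were not whole (tolerance 1e-06), and they were rounded before testing. With edgeR 4.0.16 in R 4.3.3, transcripts were filtered (filterByExpr, minimum count 10, minimum total 15), scaled by TMM and fitted with 6 group means over all 24 libraries, and contrasts were tested by the quasi-likelihood F test (two-sided), and p-values were adjusted by Benjamini-Hochberg across the 54517 transcripts and called below 0.05. The p-values set each difference against the spread between these libraries. All come from the same experiment, so a repeat of the heat treatment is not covered. Standard errors were derived from the fold change and its F value and are approximate. Alternatives were DESeq2 1.42.0, other scalings, filters and sample sets, a replicate block, and leaving out each library.

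Annotation text and miRNA and site sequences came from the study's target table, a shortened copy with 614 entries (595 with text), whose entries the study chose on degradome libraries of the same experiment. None of the transcript IDs matched the reference table, so no coordinates are given. Named transcripts were, among calls, the 10 annotated ones at either end of the fold changes (at least 5 CPM, no overlap), up to 3 called members of each list, all members of 8 target families, called targets of 14 named miRNA families, the extremes at 20 CPM or more, transcripts at 0 in a whole group, genes with opposite calls, the 3 longest runs, and the 5 largest shifts between times in each direction. The members and lists were chosen with earlier results of these data known.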

Additional observations from a re-analysis of the deposited data

Results flagged for a closer look

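Among 214 groups of 4 libraries, 33 held a library far from the other 3 by Dixon's test at the 95% level. Chance flags about 1 in 20 unselected groups. Many of these groups belong to transcripts picked for their values in the same libraries, so 33 of 214 cannot be set against that share. Of the 33 flagged libraries, 9 were heat replicate 3 of 1 DAT. In heat replicate 3 these were 45.1 CPM of TraesCS6B01G117700.1, 32.2 of TraesCSU01G258900.1, 27.8 of TraesCS1A01G001200.1, 23.6 of TraesCSU01G264900.1, 188 of TraesCS3B01G066800.1 and 81.9 of cytochrome b6-f subunit 4 (TraesCSU01G269500.1), and the shares of counts in transcripts without a chromosome (11.7%), in the D subgenome (28.8%) and in TraesCS1A01G000100.1 (6.95%). In heat replicate 4 they were 1124 CPM of TraesCS4A01G177600.1, 9.18 of fructokinase-2 (TraesCS3B01G397500.1), 74.2 of TraesCS5A01G391500.1, 82.6 of TraesCS5D01G401300.1 and 11.3% of counts in the 3 transcripts with the most counts. In heat replicate 1 they were 97.2 CPM of TatC TraesCS3A01G193600.1 and 0.0952 of TraesCS5A01G004500.1.

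In control replicate 4 the values apart were 2.51 CPM of TraesCS5A01G548000.3, 7.61 of TraesCS1B01G352400.1, 18.1 of ATP sulfurylase TraesCS5B01G387300.1, 16.8 of calmodulin (TraesCS2A01G166300.1), 925 of TraesCS5A01G391500.1 and 961 of TraesCS5D01G401300.1, with 1.40% of counts in transcripts without a chromosome and 0.044% in TraesCS1A01G000100.1. In control replicate 3 they were 1.18 CPM of CRS2-associated factor 1 (TraesCS6D01G100100.2) and 7.18 of the branched-chain aminotransferase TraesCS6A01G172400.1. In control replicate 2 they were 2.32 CPM of TraesCS6B01G246400.1 and, all in the runs of neighbours on 5A and 5D, 22.6 of TraesCS5A01G004700.1, 13.6 of TraesCS5D01G488900.1, 19.5 of TraesCS5A01G004900.1, 17.0 of TraesCS5D01G488500.1, 9.07 of TraesCS5A01G004800.1 and 5.24 of TraesCS5A01G004500.1.

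The heat effect differed between 1 and 0 DAT, by the edgeR interaction test, for 23 described transcripts. It was higher at 1 DAT, on the log2 scale, by 8.34 for TraesCS3D01G012600.2, 4.19 for TraesCS6B01G246400.1, 1.45 for the MurE-like ligase TraesCS1D01G211600.1, 1.54 for the P450 TraesCSU01G247100.1, 1.73 for methionine--tRNA ligase, 1.26 for nucleolar GTP-binding protein 1, 1.18 for ROOT PRIMORDIUM DEFECTIVE 1, 1.52 and 1.06 for the TatC copies on 3B and 3A, 1.83, 2.31 and 1.72 for the 5A, 5B and 5D ATP sulfurylases, and 1.06 for TraesCS3B01G601100.1, which under total-count scaling did not pass (adjusted p = 0.47). For 4 genes of the 7D run it was higher by 2.47 (TraesCS7D01G516600.1), 2.47 (TraesCS7D01G516700.1), 2.69 (TraesCS7D01G516900.1) and 3.27 (TraesCS7D01G516800.1). The difference for TraesCS3D01G012600.2, at a count of 0 in control, ended without control replicate 4 of 0 DAT (0.052), without the rich libraries (0.058) and with the block by pool (0.10). It was lower at 1 DAT by −3.02 for TraesCS4A01G177600.1, −2.83 for TraesCS4B01G140200.1, −1.28 for ferritin, −1.15 for the TIR1-like TraesCS2B01G302900.1, −1.86 for the leucine-zipper factor TraesCS5A01G375800.1 and −0.86 for the S-acyltransferase. The causes were not tested.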

How the results depend on the processing

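For heat against control at 1 DAT, calls numbered 3514 of 43850 tested (2240 higher, 1274 lower) with only the 8 libraries of 1 DAT. They numbered 4342 (1204 lower) with total-count scaling and 1706 (1182 higher, 524 lower) in a test against a fold of 1.5, which demands a larger difference. Median-of-ratios scaling gave 7318, the likelihood ratio test 8875 and DESeq2 9646. Other settings tested other numbers. No filter gave 5397 of 104471 transcripts, a minimum count of 50 gave 6571 of 27285, and counts summed per gene gave 9418 of 47489 genes. The fit without the 4 libraries rich in TraesCS1A01G000100.1 gave 5981 of 61524. The difference between 1 and 0 DAT gave 2410 calls with a replicate block by pool, 2428 with total-count scaling and 6125 with DESeq2. The difference between 4 and 1 DAT, 1.86% of transcripts, was 1.01% in the 16 libraries of those times, 0.726% with the replicate block by pool, 0.532% without the filter, 0.429% without the rich libraries and 4.13% with DESeq2. Leaving out 1 library at a time gave 5385 to 7611 calls at 1 DAT, with 3073 to 4191 higher and 2200 to 3423 lower, the lowest total and the lowest lower count both without heat replicate 4 of 1 DAT. For the differences it gave 2616 to 4222 (1 against 0 DAT) and 1.02 to 2.16% of transcripts (4 against 1 DAT). Composition differences, heat minus control, were −8.32 to −1.60 percentage points for the 3 transcripts with the most counts, 0.0673 to 3.53 for transcripts without a chromosome, 1.40 to 3.60 for A, −3.91 to −1.29 for B and −2.66 to −0.464 for D, and none passed.

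With counts summed per gene, 3 transcripts took the sign of their gene's summed count, by construction: TraesCS3D01G012600.2 −0.61 (edgeR adjusted p = 0.0023), TraesCS4D01G127500.2 0.18 (0.42) and TraesCS5B01G099300.1 1.47 (9.1e-05). No other named value was reversed. Deviations of same-numbered heat and control libraries correlated at 0.062, 0.085, 0.197 and 0.288, each the highest for its control library, while heat replicate 1 correlated best with control replicate 3 (0.0881). Since 2 of the 4 were under 0.1 and no label states a pairing, the numbers were not used as one. With the replicate number as a block 6646 transcripts were called at 1 DAT, and the adjusted p of 9 described calls was then 0.05 or more, at 0.053 for L5, 0.057 for TraesCS2D01G173700.1, 0.057 for TraesCS3B01G066800.1, 0.064 for TraesCS3B01G168100.2, 0.060 for squalene monooxygenase, 0.051 for TraesCS5A01G004900.1, 0.054 for ROOT PRIMORDIUM DEFECTIVE 1, 0.061 for TraesCS5D01G488400.1 and 0.13 for TraesCS6B01G117700.1. Below 1.39 CPM, where counts are few, 2.29% of transcripts were called higher and 2.08% lower. The causes of the other shifts were not tested.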
